A study of Sus scrofa with 17 samples.

Results

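The genes described here are CISH, its relatives SOCS1, SOCS2 and SOCS3, the transcription factors STAT5A and STAT5B, the growth hormone receptor GHR, and IGF1, IGF1R and IGFBP5 of the insulin-like growth factor system. They were chosen by symbol, with the measured levels of CISH in the control and UL diets already known. Those levels and their differences between diets are therefore given as descriptions, and nothing is read from the calls of CISH. Of the 10 symbols, 9 were carried by a row of the count table, which holds 31908 genes, and 8 of these had enough reads to enter the model of 14203 genes. SOCS2 had no row of its own, and SOCS3 had too few reads.

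The libraries came from the longissimus muscle of male Large White × Duroc piglets that were pair-fed and housed individually, with 1 library of 75 nt single reads per piglet. The 6 Control piglets ate a diet without seaweed, the 6 UL piglets ate the diet with 7% of the green seaweed Ulva lactuca, and the 5 ULU piglets ate the diet with 7% Ulva lactuca and 0.01% ulvan lyase, an enzyme that cuts the seaweed's cell wall polysaccharide ulvan. All were 28 days old when they entered, had 5 days to adapt, and spent 2 weeks on the diets. UL vs control asks what the seaweed changes in muscle, ULU vs control asks the same for seaweed with the enzyme, and ULU vs UL asks what the enzyme adds. The first 2 comparisons share the control piglets.

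Growth hormone binds its receptor on the cell surface, the kinase JAK2 that sits on the receptor becomes active, and the STAT5 proteins that it phosphorylates enter the nucleus and switch on genes such as IGF1. CISH and the SOCS genes are among the genes that STAT5 and other STAT proteins switch on, and their proteins bind the active receptor or its kinase and damp the signal, so their RNA rises within hours of a hormone or cytokine pulse. In muscle, insulin-like growth factor made in the liver and in the muscle itself acts through its receptor to favour fibre growth, and binding proteins such as the product of IGFBP5 hold it or pass it on.

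Counted reads ran from 16137365 to 26546810 per library, and the median piglet had 17240387 on the control diet, 18398491.5 on UL and 22320520 on ULU. Levels are given as CPM, the reads of a gene relative to the total of its library, scaled with TMM factors. These ran from 0.765 in ULU replicate 43 to 1.22 in control replicate 22. A floor of 3 reads stood for 0.130 to 0.195 CPM, depending on the library, and covers counting error only. Levels of different genes were compared as TPM, which also divides by the exonic length of the gene.

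The tissue was checked against 9 myofibre genes. Of these, 4 had a row under their symbol (ACTA1, MYH2, CKM and DES) and 5 had none (MYH1, MYH4, MYH7, TTN and MB), so the check is void for the list, of which less than 80% was found. ACTA1, skeletal muscle actin, was the most abundant at a mean level of 49060 TPM, and none of the 4 was at 0. Their summed level ran from 81900 to 131300 CPM in control, from 102000 to 140100 CPM in UL and from 117700 to 224900 CPM in ULU. In 4 of 5 ULU piglets this sum was above that of every control and every UL piglet. Since RNA was taken from whole muscle, fewer cells of a type and less RNA per cell cannot be told apart.

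Ordered by mean TPM over all 17 libraries, IGFBP5 came first with 98.2 ± 20.4 TPM (SD, n = 17). CISH followed with 28.7 ± 44.2 TPM (SD, n = 17), and STAT5A with 28.5 ± 11.9 TPM (SD, n = 17), although CISH was above STAT5A in only 4 of 17 libraries, above STAT5B in 7 and above GHR in 8. Its place rests on UL, with a mean of 63.3 TPM, against 5.53 TPM in control and 14.9 TPM in ULU. STAT5B had 13.7 ± 2.77 TPM (SD, n = 17) and GHR 9.86 ± 2.496 TPM (SD, n = 17). After these came IGF1 with 4.22 ± 1.96 TPM (SD, n = 17) and IGF1R with 1.70 ± 0.539 TPM (SD, n = 17). SOCS1 and SOCS3 were lowest, with 0.278 ± 0.165 and 0.211 ± 0.204 TPM (SD, n = 17). The ranges of neighbours in this order overlapped, except for IGF1R and SOCS1. Within single libraries, however, STAT5A was above STAT5B, GHR above IGF1 and IGF1 above IGF1R in 17 of 17, while STAT5B was above GHR in 13.

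CISH (ENSSSCG00000040581, chromosome 13, minus strand, 33084873 to 33090615 of Sscrofa11.1) codes for a protein that binds phosphorylated cytokine receptors and competes with STAT5 for them. Its level in control ran from 1.86 to 11.6 CPM with a median of 3.79 CPM. In UL it ran from 0.967 to 122 CPM with a median of 58.7 CPM. In ULU it was 1.27, 15.9, 5.33, 55.2 and 2.77 CPM in replicates 40 to 44. The UL piglets fell apart into high and low: replicates 28, 29 and 30 had 122, 103.8 and 110.5 CPM, while replicates 27 and 32 had 10.1 and 13.5 CPM and replicate 31 had the lowest level of all 17 libraries. Against the control range, 4 UL piglets were above and 1 was below, and 2 ULU piglets were above and 1 was below, so the diets overlapped in every comparison. Its counts ran from 17 to 2334 reads.

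The spread of CISH between piglets of the same diet was among the widest of the genes measured. The SD of its log2 CPM around the diet means was 2.04, which ranked 42 of 14203 genes, against a median of 0.35 over all of them. By diet the SD of log2 CPM was 0.86 in control (n = 6), 2.73 in UL (n = 6) and 2.10 in ULU (n = 5). None of the other 7 genes came near this, as their SDs around the diet means ran from 0.22 for STAT5B to 0.59 for SOCS1.

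For CISH the log2(fold change) was 3.57 (standard error 0.95) in UL vs control, 1.66 (standard error 0.94) in ULU vs control and -1.91 (standard error 0.93) in ULU vs UL. Leaving out each library in turn moved the first from 3.24, without UL replicate 28, to 4.02, without control replicate 22. The other values rested more on ULU replicate 43, the ULU piglet with the most CISH. Without it the log2(fold change) was 0.28 in ULU vs control and -3.28 in ULU vs UL.

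**Figure D1:**
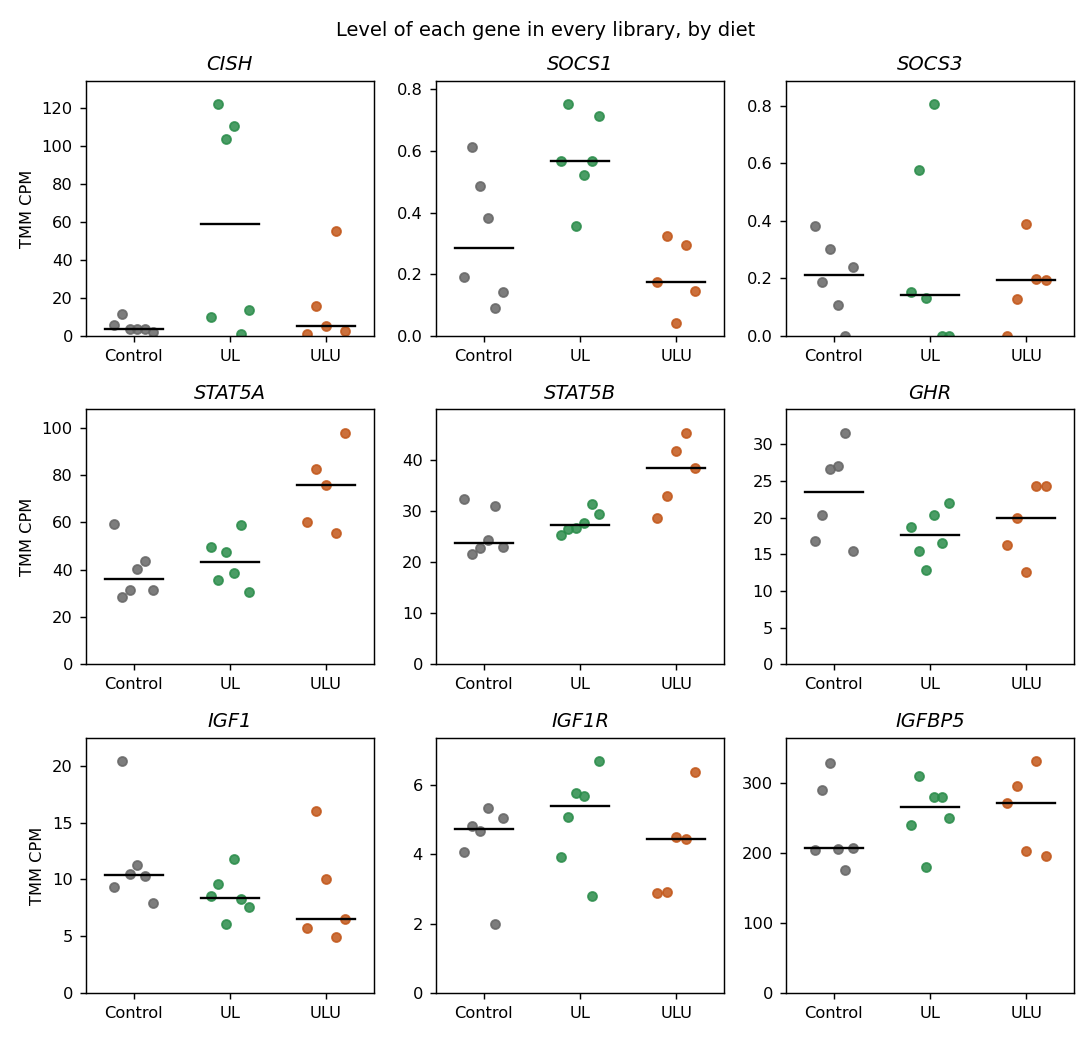
Level of each of 9 genes (TMM CPM, vertical axis) in every library, by diet; each point is 1 piglet, and the line is the median of the diet. CISH is above 100 CPM in 3 UL piglets and under 14 CPM in the other UL piglets. SOCS1, with 13 reads or fewer per library, is lower in all 5 ULU piglets than in all 6 UL piglets. STAT5A and STAT5B are highest in ULU.

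In TPM, SOCS1 and SOCS3 were below CISH in 17 of 17 libraries, and the plot of levels by diet shows their low CPM. SOCS1 (ENSSSCG00000027855, chromosome 3, plus strand, 31881225 to 31884969), whose protein blocks JAK kinases directly, had between 1 and 13 reads per library. Its level was 0.0901 to 0.613 CPM in control, with a median of 0.287 CPM, and 0.356 to 0.752 CPM in UL, with a median of 0.568 CPM. In ULU it was 0.175, 0.325, 0.0433, 0.296 and 0.146 CPM in replicates 40 to 44. All 5 ULU piglets were thus below all 6 UL piglets, while both diets overlapped with control. The nearest values, of ULU replicate 41 and UL replicate 29, came from 5 and 8 reads. The share of all genes without overlap between diets is not given here, so such separations, here and below, are descriptions only. For SOCS1 the log2(fold change) was 0.85 (standard error 0.46) in UL vs control, -0.71 (standard error 0.53) in ULU vs control and -1.56 (standard error 0.51) in ULU vs UL. SOCS1 entered the model mainly through UL, with 8 to 13 reads there and 1 to 6 in ULU, so this difference is conditioned on the diet in which it is high. The last value was -1.54 with no filter. It ran from -1.78 to -1.29 in the 12 of 17 fits without 1 library that kept SOCS1, which failed the filter without control replicate 22 or UL replicate 27, 28, 31 or 32. Control replicates 21, 25 and 26 and ULU replicates 42 and 44 had 3 or fewer reads. SOCS1 had an r of -0.50 with the counted reads of the library (n = 17), and the part of depth in this difference was not tested.

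SOCS3 (ENSSSCG00000036956, chromosome 12, plus strand, 3643929 to 3647012), a brake on signals of the interleukin-6 family, had between 0 and 17 reads and none in 4 of 17 libraries. Its highest level was 0.382 CPM in control, 0.806 CPM in UL and 0.390 CPM in ULU, and the medians of 0.214, 0.144 and 0.195 CPM were at or near the floor of 3 reads. It was highest in UL replicate 30, with 17 reads, and next in UL replicate 28, with 10 reads. Both are among the 4 piglets with high CISH, of which UL replicate 29 and ULU replicate 43 had 3 and 4 reads. The gene lies within the span of TK1, and no fold change is given at these counts.

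SOCS2 limits growth hormone signalling, and its loss causes overgrowth in mice. RefSeq places it on chromosome 5 from 89581081 to 89587424, and the only row of the count table that reaches into this span is that of CRADD (ENSSSCG00000000910, minus strand, 89242169 to 89586239), with 5 exon intervals and 1201 exonic bases inside it. Reads of SOCS2 and of CRADD, an adaptor protein of cell death signalling, cannot be told apart in these counts. The CRADD row had 10.1 to 12.7 CPM in control, 9.63 to 17.2 CPM in UL, and 10.4, 14.5, 14.1, 14.2 and 10.6 CPM in ULU replicates 40 to 44. Its highest level was in UL replicate 28, and 2 UL and 3 ULU piglets were above the control range. Between diets its log2(fold change) was 0.14 (standard error 0.15) in UL vs control and 0.17 (standard error 0.15) in ULU vs control, which is close to the standard error in both.

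STAT5A (ENSSSCG00000017402, chromosome 12, minus strand, 20474225 to 20499138) and STAT5B (ENSSSCG00000017406, chromosome 12, plus strand, 20508403 to 20574288) code for the closely related factors that carry the signal to the nucleus, and they lie side by side. STAT5A had 28.5 to 59.2 CPM in control, with a median of 36.0 CPM, and 30.7 to 59.0 CPM in UL, with a median of 43.1 CPM. In ULU it had 59.97, 82.7, 76.0, 55.6 and 97.9 CPM in replicates 40 to 44. In 4 of 5 ULU piglets STAT5A was above every control and every UL piglet, and replicate 43 was within their range. STAT5B had 21.6 to 32.4 CPM in control, with a median of 23.7 CPM, and 25.3 to 31.3 CPM in UL, with a median of 27.2 CPM. In ULU it had 28.7, 32.9, 41.7, 45.3 and 38.3 CPM in replicates 40 to 44. Again 4 of 5 ULU piglets were above both other diets, and here replicate 40 was within their range.

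For STAT5A the log2(fold change) was 0.93 (standard error 0.20) in ULU vs control and 0.77 (standard error 0.20) in ULU vs UL, while in UL vs control it was 0.16 (standard error 0.19). STAT5B moved less, with 0.53 (standard error 0.13) in ULU vs control, 0.43 (standard error 0.13) in ULU vs UL and 0.10 (standard error 0.13) in UL vs control. Over the 17 libraries STAT5B had an r of 0.72 with the summed myofibre genes, whose median was also highest in ULU, of 0.52 with the satellite cell sum and of -0.50 with the fibroblast sum. It had an r of 0.55 with the counted reads and of -0.70 with the TMM factor. For deviations from the diet means these were 0.43, 0.10, -0.45, 0.27 and -0.56 in the same order. STAT5A had an r of 0.49 with the myofibre sum and of -0.07 for the deviations. The part of these measures in the STAT5 differences was not tested.

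GHR (ENSSSCG00000016866, chromosome 16, plus strand, 27126286 to 27422268) had 15.5 to 31.6 CPM in control, with a median of 23.5 CPM, and 12.9 to 22.0 CPM in UL, with a median of 17.7 CPM. In ULU it had 16.3, 19.95, 12.6, 24.3 and 24.3 CPM in replicates 40 to 44. None of the UL piglets was above the control median and 2 were below the control range, yet the diets overlapped. The log2(fold change) was -0.38 (standard error 0.19) in UL vs control, -0.24 (standard error 0.20) in ULU vs control and 0.14 (standard error 0.20) in ULU vs UL. The receptor's RNA moved against the summed macrophage genes, with an r of -0.56, and of -0.75 for deviations from the diet means (n = 17). For the deviations it also had an r of -0.62 with the leukocyte sum, of -0.54 with the fibroblast sum and of 0.61 with the myofibre sum, and over all libraries of 0.50 with the adipocyte sum. The part of these cells was not tested. A gene without a symbol on the opposite strand (ENSSSCG00000046118, 27183925 to 27191239) lies within GHR and had 47 to 255 reads.

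IGF1 (ENSSSCG00000000857, chromosome 5, plus strand, 81775970 to 81848037), the growth factor that growth hormone induces, had 7.93 to 20.4 CPM in control, with a median of 10.4 CPM, and 6.05 to 11.8 CPM in UL, with a median of 8.401 CPM. In ULU it had 5.68, 16.1, 10.1, 4.93 and 6.47 CPM in replicates 40 to 44. Most ULU piglets were low, with 3 below the control range, but replicate 41 was above every UL piglet. The log2(fold change) was -0.43 (standard error 0.27) in UL vs control and -0.44 (standard error 0.29) in ULU vs control, and both were -0.19 without control replicate 22, which had the highest level of all. Without ULU replicate 41 the value in ULU vs control was -0.77. IGF1 had an r of 0.50 with the summed leukocyte genes, of -0.53 with the summed satellite cell genes, of -0.56 with the counted reads and of 0.52 with the TMM factor (n = 17), and their part was not tested.

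IGF1R (ENSSSCG00000030560, chromosome 1, minus strand, 137387925 to 137690666), the receptor of IGF1, ran from 1.98 to 6.69 CPM over the 17 libraries. IGFBP5 (ENSSSCG00000025924, chromosome 15, minus strand, 118857479 to 118878522), a binding protein of the growth factor that muscle cells make, ran from 175.6 to 331.5 CPM. Their diets overlapped throughout. The log2(fold change) of IGF1R ran from -0.24 (ULU vs UL, standard error 0.27) to 0.21 (UL vs control, standard error 0.26), and that of IGFBP5 from 0.01 (ULU vs UL, standard error 0.18) to 0.14 (ULU vs control, standard error 0.18). Each of these differences was smaller than its standard error.

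**Figure D2:**
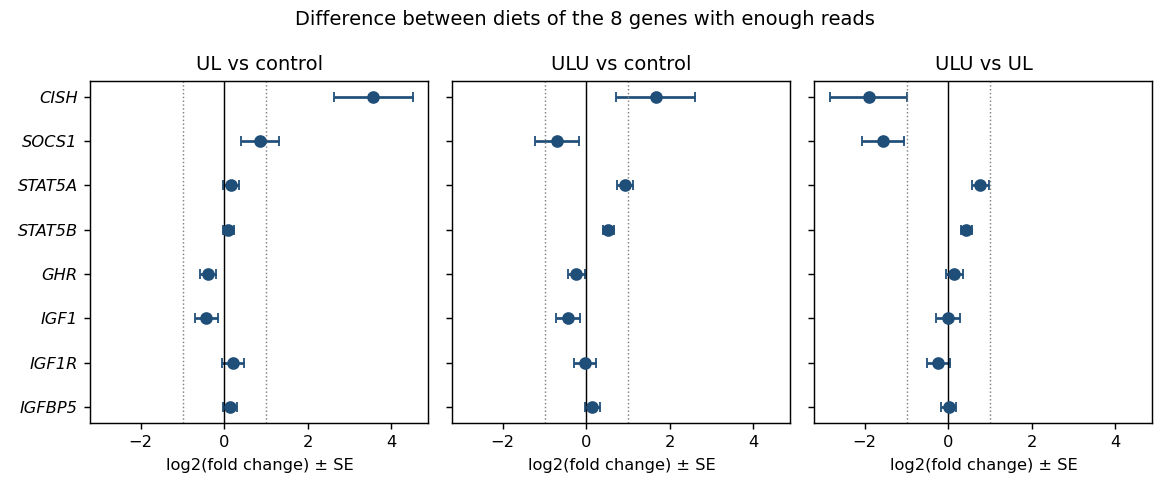
Difference between diets of 8 genes as log2(fold change) with its standard error (horizontal axis), in 3 comparisons; each point is the value of the edgeR model of all 17 libraries, and dotted lines mark -1 and 1. CISH has the largest values and the widest errors, 3.57 ± 0.95 in UL vs control, and STAT5A has 0.93 ± 0.20 in ULU vs control.

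In UL vs control, the quasi-likelihood F test of edgeR, Benjamini-Hochberg adjusted over 14203 genes, called 0 of the 8 genes, where a call needs an adjusted p under 0.05 and an absolute log2(fold change) of at least 1. It called 0 genes of all those tested (0%), and also 0 (0%) with no limit on the fold change. At an unadjusted p under 0.05 there were 1541 of 14203 genes (10.8%), of which 1 was among the 8. DESeq2 on all 17 libraries called CISH, and none of the other genes of the group to which it gave an adjusted p, beside 12 of 9957 genes (0.121%), or 139 (1.4%) with no limit on the fold change. DESeq2 on the libraries of the diets compared also called CISH, beside 11 of 9730 genes (0.113%), or 149 (1.53%) with no limit on the fold change. CISH was chosen with this contrast in view, so nothing is read from these counts. Without any 1 of the libraries, edgeR called 0 of those among the 8 that passed the filter, and 1 gene of all tested without control replicate 24 or 2 without control replicate 25.

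In ULU vs control, edgeR called 0 of the 8 genes and 59 of 14203 (0.415%) with the limit on the fold change. At an unadjusted p under 0.05 there were 2 of the 8 and 2678 of 14203 genes (18.9%). With no limit on the fold change, STAT5A and STAT5B were called, 2 of 8, beside 423 of 14203 genes (2.98%), and both were higher in ULU. DESeq2 on all 17 libraries gave an adjusted p to 7 of the 8 and called the same 2 genes without the limit, beside 1036 of 12902 (8.03%), and 0 with it, beside 115 (0.891%). DESeq2 on the libraries of the diets compared, also with 7, called 0 with the limit, beside 71 of 10558 (0.672%), and STAT5A and STAT5B without it, beside 822 (7.79%). As the members were chosen with earlier results of these libraries known, the counts are given as a description.

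The ULU vs control calls moved with single libraries. STAT5A met the adjusted p limit in every fit that left out 1 library, and it also met the limit on the fold change without control replicate 21, at a log2(fold change) of 1.09, or without ULU replicate 43, at 1.02. STAT5B did not meet the adjusted p limit without control replicate 22, 23, 24 or 26 or without ULU replicate 42, 43 or 44, nor with edgeR on the 2 diets alone. Of all genes tested, 30 were called without control replicate 22 or ULU replicate 43, 32 without ULU replicate 40, 33 without control replicate 23, 37 without ULU replicate 41 and 121 without control replicate 25.

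In ULU vs UL, edgeR called 0 of the 8 genes and 2 of 14203 (0.0141%), or 0 of the 8 and 5 of 14203 (0.0352%) with no limit on the fold change. At an unadjusted p under 0.05 there were 3 of the 8 and 1540 of 14203 genes (10.8%). SOCS1 was 1 of these 3. As SOCS1 entered the model mainly through UL, the diet in which it is high, nothing is read from this count. DESeq2 on all 17 libraries gave an adjusted p to 5 of the 8 genes and called 0 with the limit, beside 5 of 6023 (0.083%), and STAT5A without it, beside 165 (2.74%). DESeq2 on the libraries of the diets compared gave one to 4 and called 0 with the limit, beside 4 of 4422 (0.0905%), and STAT5A and STAT5B without it, beside 244 (5.52%). The edgeR count over all genes fell to 1 without UL replicate 31, ULU replicate 40 or ULU replicate 41.

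Covariation with CISH was measured as Pearson's r of log2 CPM over the 17 libraries, which share their diets in groups and so carry diet differences as well as differences between piglets. Of the 8 other genes with a row, SOCS3 alone had an r of at least 0.5, at 0.52 (Spearman's rho 0.41), and among the 14202 other genes tested 178 did (1.25%). The value for SOCS3 came from 17 reads or fewer. It was 0.59 for deviations from the diet means, 0.22 without UL replicates 28 and 30, the libraries farthest from the median of CISH, and 0.44 without UL replicate 31, where SOCS1 reached 0.57. The count was 0 without control replicate 25, UL replicate 28, UL replicate 30 or ULU replicate 40, and 2 without ULU replicate 44.

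SOCS1 had an r of 0.43 with CISH (rho 0.45) and 0.26 without those libraries, and for deviations from the diet means it had 0.24. IGF1R had 0.41 (rho 0.40), 0.34 without those libraries and 0.36 for the deviations. Their ranks were 457 and 570 among 14202 genes, and SOCS1 has few reads. IGFBP5 had an r of 0.25 (0.19 for the deviations), IGF1 of 0.04 (0.21), STAT5B of 0.04 (0.06), GHR of -0.15 (0.05) and STAT5A of -0.20 (-0.33). Among the piglets with high CISH, ULU replicate 43 had the highest STAT5B and the lowest IGF1 of all 17 libraries in CPM. That library had the lowest TMM factor, 0.765, which raises its CPM. In TPM its STAT5B of 16.93 was below the 20.44 and 18.83 of ULU replicates 42 and 44, while its IGF1 of 1.71 was still the lowest. GHR, in CPM, was below the control range in UL replicates 29 and 28 and within it in UL replicate 30 and ULU replicate 43.

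**Figure D3:**
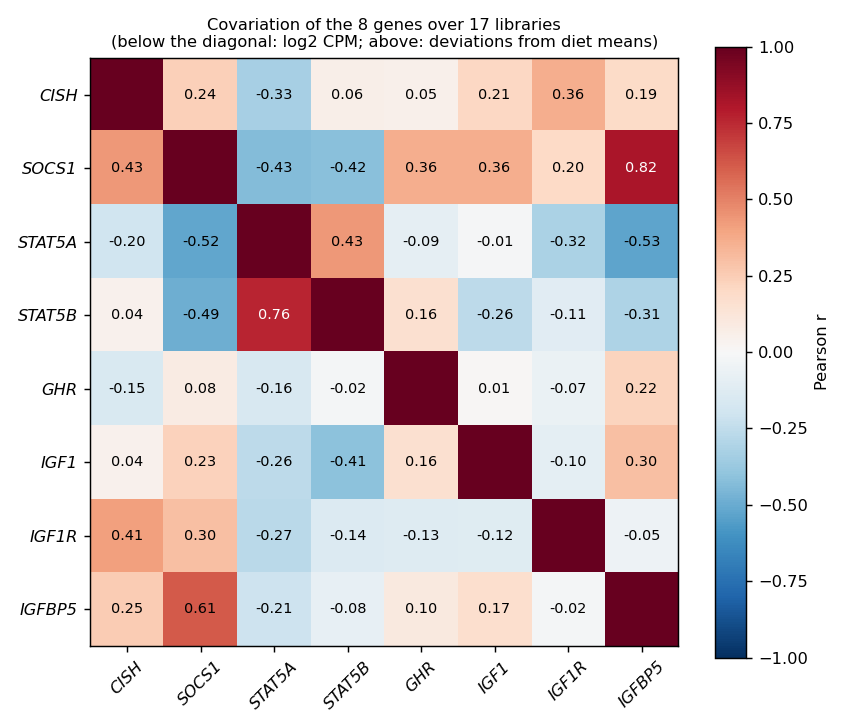
Pearson's r between 8 genes over 17 libraries, as colour and number, with genes on both axes; below the diagonal from log2 CPM, above it from deviations from the diet means. STAT5A and STAT5B have 0.76 below and 0.43 above the diagonal, and SOCS1 and IGFBP5 have 0.61 and 0.82.

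Among the 28 pairs of the 8 genes tested, 2 had an r of at least 0.5 and 1 had an r of -0.5 or less. STAT5A and STAT5B had an r of 0.76 (rho 0.77, n = 17), which was 0.43 for deviations from the diet means. SOCS1 and IGFBP5 had an r of 0.61 (rho 0.55, n = 17), and the deviations gave 0.82. SOCS1 and STAT5A had an r of -0.52 (rho -0.54, n = 17) and -0.43 for the deviations. As the map of pairs shows, the r of the STAT5 pair was smaller within diets than over all libraries, while that of SOCS1 and IGFBP5 was larger. SOCS1 has few reads.

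Over all genes tested, those most like CISH were found by the highest r over 17 libraries. ENSSSCG00000046255, which has no symbol, had the highest r of 0.81. GUCY2C, a receptor guanylate cyclase best known from the gut, had 0.78, and ZFP36L1, which speeds the decay of mRNA, had 0.75. ENSSSCG00000051165, IER3 and KLHL30 had 0.72 each, CRADD had 0.71, and CDC73, LDAF1 and UBE2Q2 had 0.69 each. CRADD, the row that reaches into SOCS2, was thus 7 in rank of 14202 genes, with a rho of 0.66, an r of 0.76 for deviations from the diet means and 0.56 without UL replicates 28 and 30. GUCY2C kept an r of 0.70 without those libraries, and its level of 74.9 CPM in ULU replicate 43, the ULU piglet with high CISH, was above those of the other ULU piglets, whose highest was 41.5 CPM. Control replicates 23 and 21, however, had 70.26 and 60.55 CPM of GUCY2C with only 3.70 and 5.73 CPM of CISH.

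The lowest r values were -0.83 for ENSSSCG00000032525, which has no symbol, -0.80 for ESRRG, a nuclear receptor of oxidative metabolism, -0.78 for FILIP1L, -0.78 for PSAT1, an enzyme of serine synthesis, and -0.77 for ARG2, an arginase. In all, 216 of 14202 genes (1.52%) had an r of -0.5 or less. PSAT1 ran from 65.9 to 354 CPM in control, from 23.8 to 168 CPM in UL and from 8.13 to 155 CPM in ULU. Its lowest level overall was in ULU replicate 43. ESRRG ran from 4.29 to 12.9 CPM in control, from 3.01 to 11.2 CPM in UL and from 3.65 to 15.1 CPM in ULU. Without UL replicates 28 and 30, PSAT1 and ESRRG both had an r of -0.70.

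**Figure D4:**
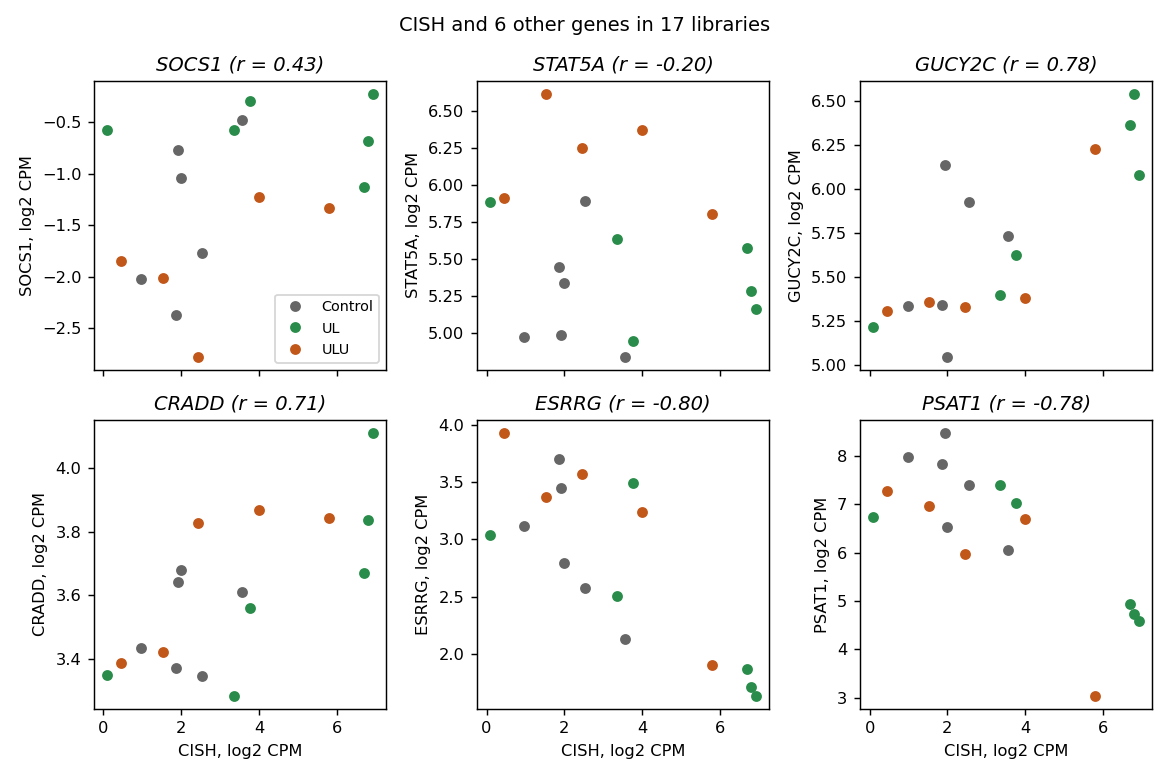
CISH (horizontal axis) against 6 other genes (vertical axes), all in log2 CPM; each point is 1 of 17 libraries, coloured by diet. GUCY2C and CRADD rise with CISH (r of 0.78 and 0.71), ESRRG and PSAT1 fall (r of -0.80 and -0.78), and SOCS1 and STAT5A follow it less (r of 0.43 and -0.20).

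As the scatter plots show, the 4 libraries with the most CISH, UL replicates 28, 29 and 30 and ULU replicate 43, were the 4 lowest for ESRRG and for PSAT1. For STAT5A they lay among the others, and for SOCS1 UL replicate 28 was the highest of all while the other 3 lay among the rest.

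Other genes of the pathway were taken from 5 lists with 77 genes, of which 75 had a row and 63 were tested. edgeR called 0 of 63 in UL vs control, 1 in ULU vs control, which was lower, and 0 in ULU vs UL. Over all 14203 genes it called 0%, 0.415% and 0.0141%. At an unadjusted p under 0.05 there were 8, 16 and 6 of the 63, beside 10.8%, 18.9% and 10.8% of all genes. DESeq2 on all 17 libraries called 0 of 52, 1 of 61 and 0 of 28, beside 0.121%, 0.891% and 0.083% of all genes. The median log2(fold change) of the 63 genes was -0.10, -0.18 and -0.08 in the 3 comparisons in that order, beside -0.003, -0.028 and -0.021 over all genes tested. With no limit on the fold change, edgeR called 4 of 63 in ULU vs control, 2 higher and 2 lower, beside 2.98% of all genes, and 0 in the other comparisons. DESeq2 on all 17 libraries then called 6 of 61 in ULU vs control, these 4 with IGFBP7 and STAT6, beside 8.03% of all genes, and IL6ST in UL vs control, beside 1.4%.

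The cytokine ligands and receptors held 3 of these 4. OSMR, a receptor chain for oncostatin M, was the gene called with the limit. It had 6.67 to 18.1 CPM in control, 7.11 to 11.3 CPM in UL and at most 6.37 CPM in ULU, where all 5 piglets were below all control and all UL piglets. In ULU vs control the log2(fold change) of OSMR was -1.09 ± 0.23 (standard error), and edgeR's test, adjusted by Benjamini-Hochberg, gave an adjusted p of 0.0172. That adjusted p was 0.0504 without ULU replicate 43 in the same edgeR test with Benjamini-Hochberg adjustment, and the call was lost without that library and with edgeR on the 2 diets alone. Without control replicate 22 it was lost through the limit on the fold change alone, at a log2(fold change) of -0.89, while the adjusted p limit was met. IL6ST, the signal chain shared by the interleukin-6 family, had 97.8 to 132 CPM in control and 71.1 to 92.5 CPM in ULU, without overlap. There the log2(fold change) was -0.53 ± 0.10 (standard error), with, by edgeR's test with Benjamini-Hochberg adjustment, an adjusted p of 0.0122, which was at most 0.0360 with any 1 library left out. In UL, 5 of 6 piglets were also below the control range for IL6ST, at a log2(fold change) of -0.39 ± 0.10 (standard error). Here edgeR's test with Benjamini-Hochberg adjustment gave an adjusted p of 0.155, and from 0.0663 to 0.300 in the fits that lacked 1 library, while DESeq2 on all 17 libraries gave 0.0168.

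IL4R, a receptor chain for interleukin-4, was higher in ULU than in control, where 4 of 5 ULU piglets were above the control range. The difference was a log2(fold change) of 0.82 ± 0.22 (standard error), with an adjusted p of 0.0488 by the edgeR test and Benjamini-Hochberg adjustment. SOCS5, a relative of CISH, had 24.7 to 29.7 CPM in control and 30.9 to 37.8 CPM in ULU, without overlap. Its difference was a log2(fold change) of 0.35 ± 0.09 (standard error), with an adjusted p of 0.0495 by the edgeR test and Benjamini-Hochberg adjustment. Both were close to the limit. In fits that lacked 1 library, the adjusted p of edgeR's test with Benjamini-Hochberg adjustment was under 0.05 in only 2 of 17 for each gene, and it reached 0.118 for IL4R without ULU replicate 43 and 0.0963 for SOCS5 without ULU replicate 42. IL4R was also the only 1 of 63 (1.59%) with an r of at least 0.5 with CISH, beside 1.25% of all genes, at 0.62 (rho 0.61, n = 17), and 0.61 without UL replicates 28 and 30. IRS2, BCL6 and CDKN1A, 3 of 63 beside 1.52% of all genes, had an r of -0.58, -0.56 and -0.51, which became -0.41, -0.43 and -0.37 without those libraries.

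The cytokine list had 21 genes, of which 14 were tested, with IL6ST and IFNGR1 the most abundant at 30.2 and 21.2 TPM. GH1, growth hormone itself, had 0 reads in all 17 libraries, which allows 0.130 to 0.195 CPM per library. PRLR, EPOR, IL6, LIF, IL15RA and IL7R had too few reads. The median log2(fold change) was -0.15 in UL vs control, -0.43 in ULU vs control and -0.13 in ULU vs UL. The largest changes in UL vs control were those of IL2RG, at -0.64, and CSF2RB, at -0.56. In ULU vs control they were those of OSMR and IL2RG, at -1.09 and -0.97, and in ULU vs UL those of OSMR and IFNAR2, at -0.75 and -0.53. Without ULU replicate 42, IL2RG had -1.63 in ULU vs control. Apart from OSMR in ULU vs control, none of these changes passed edgeR's test. In ULU vs control, 8 of 9 leukocyte, 6 of 6 macrophage, 6 of 6 fibroblast and 5 of 5 adipocyte marker genes tested also had a log2(fold change) below 0. So did 3 of 5 endothelial, 1 of 3 satellite cell, 0 of 3 erythroid and 0 of 4 myofibre genes, beside 7527 of all 14203 genes. None of the leukocyte, macrophage, fibroblast or adipocyte markers passed edgeR's test either, and the part of these cells in the list was not tested.

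The Janus kinases and other STATs had 9 genes, of which 8 were tested, and edgeR called 0 in any comparison with or without the limit on the fold change (unadjusted p under 0.05: 0, 1 and 0 genes). JAK1 was among the most abundant, at 47.1 TPM. The median log2(fold change) was -0.21 in UL vs control, -0.20 in ULU vs control and -0.01 in ULU vs UL. JAK2, the kinase that serves the growth hormone receptor, had a log2(fold change) of -0.15, 0.04 and 0.19 in these comparisons (standard error 0.14 in each). STAT6, which carries the interleukin-4 signal, had the largest in ULU vs control, at -0.55, and in ULU vs UL, at -0.34. In UL vs control JAK3 and TYK2 led with -0.29 and -0.26, and JAK3 had -0.32 in ULU vs control. The last was -1.24 without ULU replicate 42 and -0.03 without control replicate 26.

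The list of genes that restrain signalling had 18 genes, of which 17 were tested, and SOCS5 in ULU vs control, with no limit on the fold change, was the only gene that edgeR's test called. PIAS1 and PTPN11 were the most abundant, at 20.5 and 18.8 TPM. The median log2(fold change) was -0.06, 0.06 and 0.01 in the 3 comparisons in the same order. In UL vs control the largest changes were 0.34 for GRB14, an adaptor that binds the insulin receptor, and 0.33 for PIAS3. The phosphatase PTPN6 and SOCS7 led in ULU vs control, at -0.69 and 0.57, and in ULU vs UL, at -0.53 and 0.41. For PTPN6 these were -1.44 and -1.28 without ULU replicate 42. Among the ULU piglets that library had the highest sums of leukocyte and macrophage genes, at 51.5 and 129.6 CPM. The part of these cells in PTPN6, JAK3 and IL2RG was not tested.

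The rest of the growth factor system had 16 genes, of which 13 were tested, edgeR called 0 with or without the limit (unadjusted p under 0.05: 2, 4 and 3 genes), and IGFBP3 had no row under its symbol. IGF2 and IGFBP6 were the most abundant, at 245 and 41.6 TPM. IGF2, the growth factor of fetal and early growth, had 157 to 705 CPM in control, 482 to 1060.0 CPM in UL and 740.1 to 1052 CPM in ULU. All 5 ULU piglets were above all 6 control piglets, and so were 4 of 6 UL piglets. By edgeR's test with Benjamini-Hochberg adjustment IGF2 did not pass in ULU vs control, at a log2(fold change) of 0.73 ± 0.26 (standard error) and an adjusted p of 0.131, nor in UL vs control, at 0.62 ± 0.25 and 0.389. STC1 had -0.57 in UL vs control, but 0.11 without control replicate 24. STC2 and PAPPA, which act on the protease that frees bound growth factor or are that protease, had -0.94 and -0.92 in ULU vs control, and STC2 and INSR had -0.99 and -0.48 in ULU vs UL. Without control replicate 26 the first of these, for STC2 in ULU vs control, was -0.34. The list had a median of -0.06 in UL vs control, -0.26 in ULU vs control and -0.24 in ULU vs UL.

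Genes that STAT5 is known to switch on or off made up a list of 13, of which 11 were tested, and edgeR called 0 with or without the limit (unadjusted p under 0.05: 2, 1 and 1 genes). OSM had no row under its symbol and MCL1 had too few reads. The most abundant were CDKN1A, an inhibitor of the cell cycle, at 481 TPM and CCND2, a cyclin, at 24.9 TPM. In UL vs control BCL6, which STAT5 represses, had a log2(fold change) of -0.68 and CCND1 of 0.58. IL2RA and PIM3 led in ULU vs control, at -1.04 and -0.37, and in ULU vs UL, at -0.55 and -0.62. The list had a median of -0.03 in UL vs control, -0.19 in ULU vs control and -0.13 in ULU vs UL. It mixes genes that STAT5 raises and lowers, so this median does not measure STAT5 output.

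**Figure D5:**
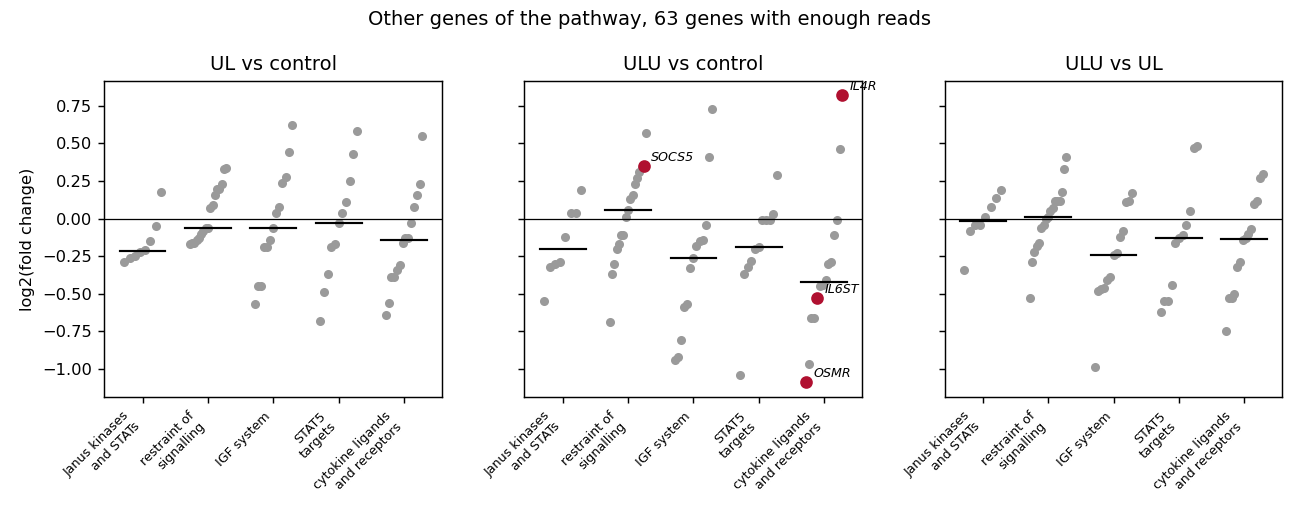
Difference between diets of 63 genes in 5 lists as log2(fold change) (vertical axis), in 3 comparisons; each point is 1 gene, lines are list medians, and genes in red met the adjusted p limit of edgeR's test. The labelled genes are in ULU vs control, with IL4R at 0.82, SOCS5 at 0.35, IL6ST at -0.53 and OSMR at -1.09.

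Markers of other cells in the muscle were summed in each library. None of their genes was at 0 in all libraries. The 10 leukocyte genes, with PTPRC the most abundant at 8.28 TPM, had a median sum of 57.8 CPM in control, 37.9 CPM in UL and 17.2 CPM in ULU, with single piglets from 11.98 to 74.0 CPM. The 6 macrophage genes, led by AIF1 at 12.6 TPM, had medians of 70.2, 47.0 and 36.1 CPM in the same order. The 6 adipocyte genes, led by FABP4 at 130.4 TPM, had medians of 135, 105 and 71.6 CPM. The sums of these 3 lists were thus lowest at the median in ULU, and all overlapped between diets. CISH had an r of 0.13, 0.08 and -0.16 with them (n = 17). Within UL, replicates 28, 29 and 30, with high CISH, had adipocyte sums of 60.6, 59.9 and 65.9 CPM, below the control range. UL replicates 27, 31 and 32 had 175, 187 and 143 CPM. In ULU the order was the other way, with 128 CPM in replicate 43, with high CISH, and 28.5 CPM in replicate 40, with low CISH. The part of adipocytes was not tested.

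The 6 fibroblast genes, led by COL3A1 at 1242 TPM, had medians of 6668, 5381 and 5106 CPM in control, UL and ULU. Of the 6 endothelial genes 5 had a row, led by PECAM1 at 20.4 TPM, with medians of 146, 150 and 137 CPM. The 3 erythroid genes, led by HBB at 126 TPM, had medians of 44.4, 66.7 and 61.7 CPM. The diets overlapped in each of these sums. CISH had an r of -0.06, 0.04 and -0.14 with them in this order (n = 17).

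The 3 satellite cell genes had medians of 65.3 CPM in control, 93.0 CPM in UL and 96.9 CPM in ULU, and 4 of 6 UL and 4 of 5 ULU piglets were above the control range. The sum is mostly MYOD1, with a median of 83.95 CPM in ULU. Of the 3 genes, 1 was lower in UL vs control, 1 in ULU vs control, at -0.23, and 2 in ULU vs UL. MYOD1, which drives myoblasts toward muscle, was the most abundant at 20.4 TPM, and all 5 ULU piglets were above all 6 control piglets. For MYOD1 there was a log2(fold change) of 0.86 ± 0.19 (standard error) in ULU vs control and an adjusted p of 0.0258 by the edgeR test and Benjamini-Hochberg adjustment, which reached 0.0652 without ULU replicate 43. Of the myofibre genes MYH2, named after its values were seen, had 0.53 ± 0.13 (standard error) and an adjusted p of 0.0397 by the edgeR test and Benjamini-Hochberg adjustment, and met the limit in 8 of 17 fits with 1 library left out. No other marker gene met the adjusted p limit in any comparison. CISH had an r of 0.45 with the satellite cell sum and 0.49 for deviations from the diet means, and the part of these cells in the level of CISH was not tested.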

How the data were processed

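The authors deposited raw counts per Ensembl gene, without normalization, for 17 libraries of longissimus muscle (6 Control, 6 UL, 5 ULU). Per the labels and file headers, reads were trimmed with fastp, aligned with HISAT2 to Sscrofa11.1 and counted with featureCounts on annotation release 104. The labels give Subread 1.5.1 and the header gives featureCounts 2.0.1. No strand option was set, so reads of overlapping genes on opposite strands are not separated. Counted reads per library ran from 16137365 to 26546810.

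The software was R 4.3.3 (edgeR 4.0.16, DESeq2 1.42.0) and Python 3.11.15 (pandas 2.3.3, numpy 2.4.6, matplotlib 3.10.9). Symbols came from the gene ID (15029 genes), from the count table (1 gene, MYH2) or from RefSeq by position with at least 80% overlap both ways (2473 genes, among them IGF2). The 9 genes of the group with a row were named by gene ID. Diet was the factor of a single quasi-likelihood model in edgeR that held all 17 libraries, after TMM scaling and filterByExpr by diet, which kept 14203 genes. A call needs a Benjamini-Hochberg adjusted p under 0.05 and an absolute log2(fold change) of at least 1. The standard error is the absolute log2(fold change) divided by the square root of F. Correlations used log2 CPM with a prior count of 2. The tests were checked on simulated counts, but the outcome is not given here and nothing rests on it.

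Beside the members, the genes named are those called in the 5 pathway lists, the 2 most abundant and the 2 with the largest change per list and comparison, the most abundant of each of 8 marker lists, and the 10 highest and 5 lowest in r with CISH. Genes called only without the limit on the fold change, and those of the pathway with an r beyond 0.5, were named after their values were seen. Of the genes these rules select, 2 are not reported here, nor is the marker list that needs one of them. The members and lists were chosen with earlier results of these data known. Alternatives were RLE factors, no filter, DESeq2 on all libraries or on the diets compared, edgeR on the diets compared, no limit on the fold change, a prior count of 0.5, Spearman's rho, deviations from diet means, and leaving out single libraries or the 2 farthest in CISH. Protein measurements were not used here.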

Additional observations from a re-analysis of the deposited data

Results flagged for a closer look

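For 63 genes named in the text, the level in each diet was searched for a library far from its group, with a gap to the nearest other library that is large for the range of the diet (Dixon's test). In 20 of 189 groups a library stood apart. Chance flags about 1 in 20 groups where values are normally distributed and genes are chosen without regard to them. Many of these genes were chosen for their change or their r with CISH in the same libraries. That rate is therefore no benchmark here, and nothing is read from the count. The values below are CPM, each with the nearest other value of its diet.

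ULU replicate 43 was high in CISH (55.24, next 15.92), GUCY2C (74.86, next 41.52), MYOD1 (170.9, next 96.39) and UBE2Q2 (92.85, next 66.34). This library had the lowest TMM factor, 0.765, followed by 0.925 in ULU replicate 40, and a low factor raises the CPM. The part of this scaling in the values of ULU replicate 43 was not tested. ULU replicate 42 was high in JAK3 (5.719, next 1.689) and PTPN6 (11.92, next 3.184) and low in STC2 (1.603, next 3.210). UL replicate 27 was high in CDKN1A (794.2, next 310.5) and low in IFNGR1 (32.60, next 43.29). UL replicate 29 was high in IER3 (8.361, next 4.336), and UL replicate 31 was low in CDC73 (4.779, next 8.494).

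Control replicate 21 was high in SOCS5 (29.67, next 26.24) and low in PECAM1 (47.75, next 68.75). Control replicate 22 was high in IGF1 (20.41, next 11.29). Control replicate 23 was high in PIM3 (1.576, next 1.099) and LDAF1 (26.01, next 19.80). Control replicate 24 was high in STC1 (5.129, next 1.576) and FABP4 (311.3, next 102.9). Control replicate 25 was low in COL3A1 (1613, next 3487), and control replicate 26 was high in ARG2 (144.8, next 67.43).

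ULU replicate 43 holds the most of these values, with 4, and UL replicates 28, 30 and 32 and ULU replicates 40, 41 and 44 hold none. The high CISH of UL replicates 28, 29 and 30 is not in this list, because 3 libraries that are high together leave no gap around any of them.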

How the results depend on the processing

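The log2(fold change) of the 8 genes kept its sign, or moved by less than the spread between libraries, in each of 118 recalculations with another normalization, filter, tool or set of libraries and of 393 with 1 library left out. Without ULU replicate 43 that of CISH fell from 1.66 to 0.28 in ULU vs control.

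Counts of calls moved more, and the cause was not tested. In UL vs control, over all genes, 0 became 12 with DESeq2 on all 17 libraries, 11 with DESeq2 on the diets compared, and 0 to 2 with 1 library left out. Of the 8 genes, 0 became 1 (CISH) with DESeq2 on all libraries and 1 on the diets compared.

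In ULU vs control, 59 of all genes became 27 with edgeR on the diets compared, 115 with DESeq2 on all 17 libraries, 423 with no limit on the fold change, and 30 to 121 with 1 library left out. The 1 pathway gene became 0 with edgeR on the diets compared, 4 with no limit on the fold change, and 0 to 1 with 1 library left out. Of the 8 genes, 0 became 2 with no limit on the fold change and 0 to 1 with 1 library left out.

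In ULU vs UL, 2 of all genes became 1 with edgeR on the diets compared, 5 with DESeq2 on all 17 libraries, 4 with DESeq2 on the diets compared, 5 with no limit on the fold change, and 1 to 3 with 1 library left out. The count of pathway genes in ULU vs UL was 0 under each alternative. The counts of pathway genes in UL vs control and of the 8 genes in ULU vs UL were 0 under each alternative except no limit on the fold change with DESeq2.

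The count of genes with an r of at least 0.5 with CISH, 1 of 8, became 0 with Spearman's rho, 0 without UL replicates 28 and 30, and 0 to 2 with 1 library left out.

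No paired analysis was possible because the diets share no replicate numbers. Depth limits SOCS1 (1 to 13 reads) and SOCS3 (0 to 17 reads). SOCS2 cannot be separated from CRADD, and reads of genes on opposite strands are not separated for GHR. With 5 or 6 piglets a diet and 4 piglets carrying the high CISH values, its difference between diets rests on few piglets.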

Other observations

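PSAT1 had one of the lowest r values with CISH, and its neighbours in metabolism were therefore listed after the r values had been seen, so what follows is a description without a test, over the 17 libraries and with diet differences included. Of 20 cytosolic aminoacyl-tRNA synthetases, which load amino acids onto tRNA, 11 had an r of -0.5 or less with CISH, with a median of -0.54, and 0 had an r of at least 0.5. The lowest were SARS1 at -0.74, YARS1 at -0.73 and TARS1 at -0.71. PSAT1 prompted the list of amino acid synthesis and is left out of it here. Of its 14 other genes 13 could be compared, and 6 had an r of -0.5 or less, with a median of -0.41. These were PSPH, ASNS, SHMT2, MTHFD2, GPT2 and PYCR1. Of 17 mitochondrial synthetases 16 could be compared, and 0 had an r of -0.5 or less, with a median of -0.11.

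Over all 14202 genes compared, 216 had an r of -0.5 or less, and the median was 0.01. For deviations from the diet means the medians were -0.53 for the cytosolic synthetases, -0.50 for amino acid synthesis and -0.12 for the mitochondrial synthetases, with 11, 7 and 1 genes at -0.5 or less, beside 313 of all genes. Without UL replicates 28 and 30 they were -0.41, -0.52 and -0.02, and 7 cytosolic synthetases, 7 genes of amino acid synthesis and 0 mitochondrial synthetases had an r of -0.5 or less, beside 178 of all genes. Why these genes move against CISH was not tested.

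IGF2 in control replicate 21, at 157 CPM, was the lowest level of that gene in the 17 libraries.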
